A study of Mus musculus with 2 samples.

Results

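The 7 genes described here are Gm17167, Sav1, Oser1, Rprm, Lypd1, B230216N24Rik and Aldh1l2, out of 32285 genes in the count tables. They were taken by name, as genes whose levels had been seen to differ between the 2 libraries of the study in several cell types. The values that chose them are therefore the values given below, which describe the libraries and carry no test. Nuclei of flash-frozen hippocampus were profiled by droplet-based 3' single-nucleus RNA sequencing, which counts unique molecular identifiers (UMIs) per gene and nucleus. The first library came from 8-month-old mice of the genotype 5XFAD x MR1 KO, and the other from 8-month-old 5XFAD mice. 5XFAD is a set of transgenes of mutant human amyloid precursor protein and presenilin under a neuronal promoter, and both libraries carry it. MR1 is an antigen-presenting molecule that shows microbial metabolites to MAIT cells, a class of innate-like T cells. Each library pooled 1 male and 1 female mouse, so with 1 library per group no difference below has a replicate check, and genotype cannot be told apart from anything else in which the libraries differ. Intervals cover counting error at 95% and nothing else. Mr1 itself had 65 UMIs in the library labelled MR1 knockout and 33 in the 5XFAD library, a ratio of 1.97 (interval 1.28 to 3.10) in CPM, its UMIs as a share of all UMIs counted, which goes against the label. A 3' or intronic count can lie outside a deleted part, so it says nothing of the protein, and the first library is called the library labelled MR1 knockout throughout.

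The kept data were 17251 nuclei with 56388557 UMIs in the library labelled MR1 knockout and 12068 nuclei with 56459524 UMIs in the 5XFAD library. Their median depths were 2514 and 3702 UMIs per nucleus, so a gene at an equal share of all UMIs has fewer UMIs per nucleus in the library labelled MR1 knockout. Cell classes were rebuilt from marker genes. Comparisons cover 9 classes, 5 of neurons and 4 of glia, each of 200 nuclei or more per library. Every marker of a class was detected in it in both libraries. The same markers named the clusters, and markers of a class can be detected in other classes, so this does not check the names. Unnamed clusters held 29.6% of the nuclei of the library labelled MR1 knockout and 31.0% of those of the 5XFAD library. The median log2 CPM ratio over all genes with at least 20 UMIs was 0.13 over all nuclei, so values near that are the middle of the distribution. The libraries shared 63 cell barcodes among kept nuclei. A cluster with striatal medium spiny neuron markers held 4 nuclei of the library labelled MR1 knockout and 1143 of the 5XFAD library, and without it the 7 ratios over all nuclei stayed within their intervals.

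The genes have no common pathway. Sav1 is the scaffold of the Hippo kinases, which restrain the co-activators Yap1 and Wwtr1 and so cell growth. Oser1 is named for its response to oxidative stress. Rprm, or Reprimo, was described in human cells as a target of p53 that holds the cell cycle in G2, and in mouse cortex it marks deep-layer neurons. Lypd1 is a Ly6 protein of the neuronal surface that binds nicotinic acetylcholine receptors and damps them. Aldh1l2 is the mitochondrial 10-formyltetrahydrofolate dehydrogenase of one-carbon metabolism. Gm17167 and B230216N24Rik are annotated as processed transcripts with no coding sequence given, and no role is stated for them. Droplets also take up RNA set free from broken cells, which gives a class UMIs of genes it does not express. Such free RNA is spread over all classes at a like low level, whereas a gene read from the nucleus itself can differ between classes.

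The promoters of Sav1, Oser1 and Rprm are shown, as the genes with the widest differences among those with a RefSeq entry, in windows of 300 bases that lie mostly before the start (table build GRCm38.p6, all on the minus strand, 5′ to 3′). Capitals mark the letters CATTCC, to which TEAD factors of the Hippo pathway bind, or CACGTG, an E-box, searched on both strands.

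Sav1, chr12:69986953-69987252: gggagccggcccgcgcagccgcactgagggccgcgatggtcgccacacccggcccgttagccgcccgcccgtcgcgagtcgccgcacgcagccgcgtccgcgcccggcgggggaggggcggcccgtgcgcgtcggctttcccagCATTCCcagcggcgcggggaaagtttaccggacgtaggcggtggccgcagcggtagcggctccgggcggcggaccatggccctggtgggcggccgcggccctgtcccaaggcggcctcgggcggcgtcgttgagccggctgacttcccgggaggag
Oser1, chr2:163419421-163419720: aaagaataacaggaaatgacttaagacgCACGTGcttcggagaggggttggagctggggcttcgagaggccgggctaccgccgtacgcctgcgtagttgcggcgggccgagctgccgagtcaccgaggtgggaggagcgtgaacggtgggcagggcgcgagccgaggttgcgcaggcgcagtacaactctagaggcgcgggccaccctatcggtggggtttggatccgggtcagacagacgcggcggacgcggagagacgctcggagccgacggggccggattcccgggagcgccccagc
Rprm, chr2:54085503-54085802: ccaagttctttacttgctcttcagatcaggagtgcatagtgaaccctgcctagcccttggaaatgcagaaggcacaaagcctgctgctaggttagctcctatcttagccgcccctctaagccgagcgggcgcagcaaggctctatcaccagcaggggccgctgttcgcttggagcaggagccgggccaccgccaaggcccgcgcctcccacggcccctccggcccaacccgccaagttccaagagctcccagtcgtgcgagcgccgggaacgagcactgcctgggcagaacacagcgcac

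The Sav1 window held 1 CATTCC, as do 14.7% of the 32851 promoters searched, which are not all those of the table. The Oser1 window held 1 CACGTG, as do 7.15%. Neither GTAAACA (the FoxO letters, in 3.65% of promoters) nor TATAAA (in 13.6%) occurred in any of the 3, and the Rprm window held none of the 4 motifs. The Sav1 window had 50 CpG pairs, more than in 99.1% of promoters, against 37 for Oser1 and 19 for Rprm, where the median promoter has 7. Promoter sequences matched 5 of the 7 genes. In GRCm38, Sav1 spans 69965012 to 69987002 of chromosome 12, Rprm 54084093 to 54085552 of chromosome 2, Lypd1 125867622 to 125913101 of chromosome 1 and Aldh1l2 83487450 to 83534140 of chromosome 10, all on the minus strand.

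Over all kept nuclei, Gm17167, Sav1 and B230216N24Rik were lower in the library labelled MR1 knockout past 1.5-fold, Oser1, Rprm and Lypd1 were higher past it, and Aldh1l2 was within it. Of the genes with at least 20 UMIs, 4.1% were lower and 11.6% higher by this limit, and since the genes were chosen on this contrast nothing is read from their own count. Gm17167 had 0.372 CPM in the library labelled MR1 knockout and 20.2 CPM in the 5XFAD library, a ratio of 0.0185 (0.0114 to 0.0284). Sav1 had 12.9 and 37.9 CPM, a ratio of 0.340 (0.312 to 0.370). B230216N24Rik had 27.0 and 40.8 CPM, a ratio of 0.662 (0.620 to 0.707), which is just past the limit. These 3 intervals all lie below 1. Rprm had 37.1 CPM in the library labelled MR1 knockout and 9.88 CPM in the 5XFAD library, a ratio of 3.75 (3.41 to 4.12). Oser1 had 28.5 and 9.42 CPM, a ratio of 3.02 (2.74 to 3.34). Lypd1 had 84.1 and 34.3 CPM, a ratio of 2.45 (2.33 to 2.59). The intervals of these 3 all lie above 1. Aldh1l2 had 6.17 CPM in the library labelled MR1 knockout and 7.16 CPM in the 5XFAD library, a ratio of 0.862 (0.745 to 0.998).

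**Figure D1:**
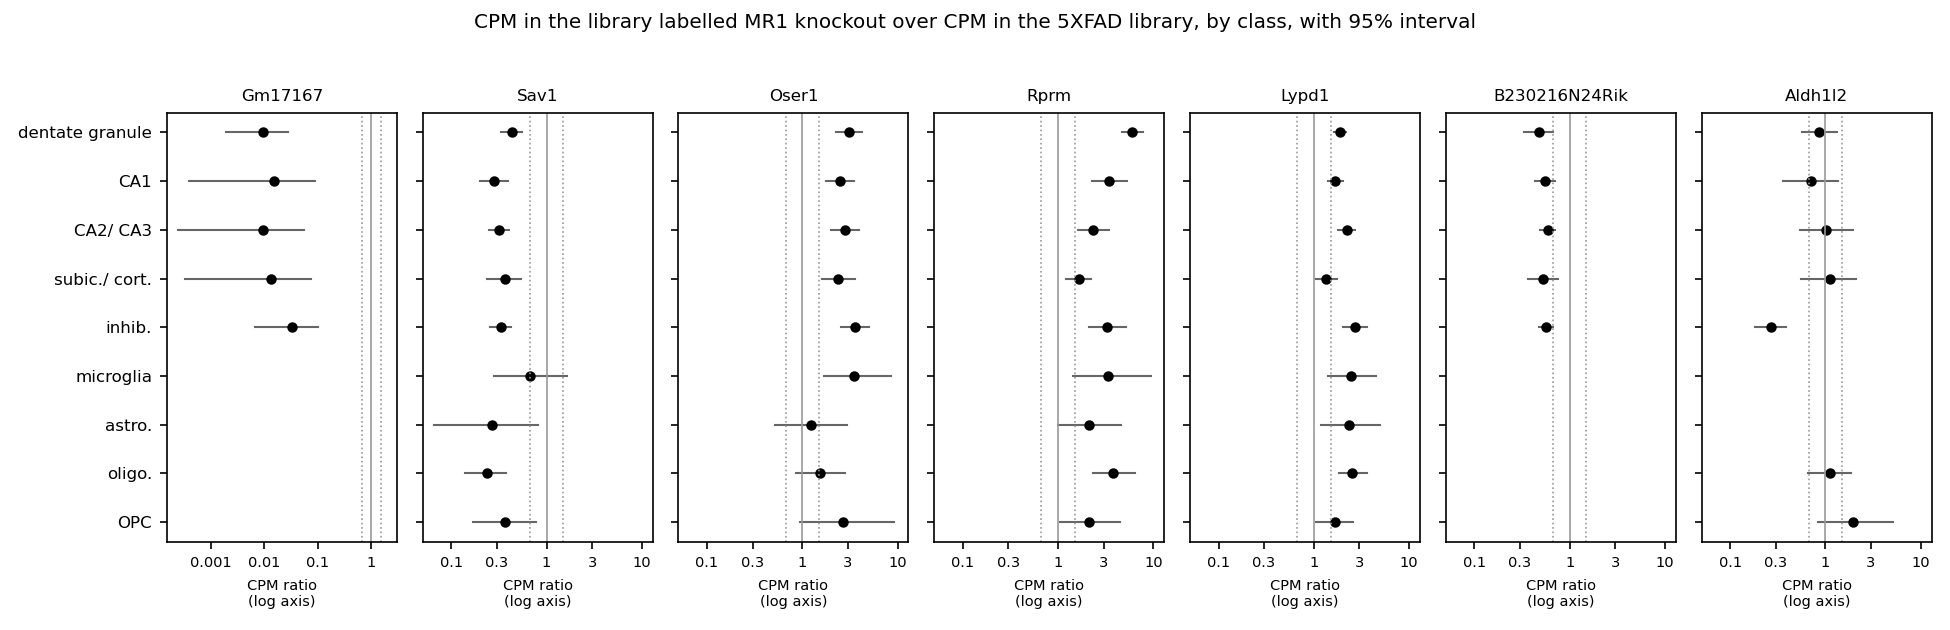
Ratio of CPM in the library labelled MR1 knockout to CPM in the 5XFAD library (log axis), by cell class, for each gene, with its 95% counting interval; classes with under 20 UMIs or none in a library are left blank, and dotted lines mark 1.5-fold. Sav1 lies left of 1 and Rprm right of 1 in all 9 classes, and Aldh1l2 is past the limit on the lower side in inhibitory neurons alone.

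By class, Sav1 was lower past 1.5-fold in 9 of 9 classes, Rprm higher in 9 of 9, and Oser1 and Lypd1 higher in 8 of 9. Gm17167 and B230216N24Rik were lower in all 5 classes where they reached 20 UMIs, the 5 neuronal ones. Among all genes, 0.0612% of those measured in 9 classes were lower in all 9 and 0.0918% higher in all 9. Of those measured in at least 8 classes, 0.164% were higher in at least 8, and of those measured in at least 5, 0.235% were lower in at least 5. The contrast that chose the genes gives these counts, so they are a description. Aldh1l2 was past the limit on the lower side in 1 of 7 measured classes and on the higher side in 1, so it was not shifted across many classes. Within single classes, the share of all genes past the limit was 14.8% higher and 6.14% lower in dentate granule neurons, 8.93% and 3.33% in CA1, 7.38% and 3.17% in CA2/CA3, 10.7% and 5.26% in subicular or cortical excitatory neurons and 8.42% and 3.57% in inhibitory neurons. In glia it was 14.6% higher and 9.49% lower in microglia, 12.9% and 12.4% in astrocytes, 12% and 6.56% in oligodendrocytes and 14.3% and 7.43% in their precursors.

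Gm17167 was almost absent from the library labelled MR1 knockout. Dentate granule neurons had 3 of its UMIs in 4159 nuclei of that library, against 199 in 1482 nuclei of the 5XFAD library. Inhibitory neurons had 3 UMIs, against 68, and the other 3 neuronal classes 1 each, against 83 in CA1, 103 in CA2/CA3 and 186 in subicular or cortical excitatory neurons. The class ratios lay between 0.00932 (0.00191 to 0.0276) in dentate granule neurons and, in inhibitory neurons, 0.0336 (0.00675 to 0.102). In the 5XFAD library the level was highest in subicular or cortical excitatory neurons, at 23.9 UMIs per 100 nuclei (20.6 to 27.6), followed by dentate granule neurons at 13.4 (11.6 to 15.4). These 2 stood apart from each other and from the next class, CA2/CA3 pyramidal neurons at 8.85, while CA1 at 7.20 and inhibitory neurons at 6.89 overlapped with it. Oligodendrocyte precursors had 5.19 UMIs per 100 nuclei (2.68 to 9.07), astrocytes 3.77, microglia 1.23 and oligodendrocytes 0.622. The 2423 glial nuclei of the library labelled MR1 knockout held 0 UMIs and the 1517 of the 5XFAD library held 29. With a floor of 3 UMIs for the count of 0, this is at least 15.4-fold lower per nucleus.

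Gm17167 lies on chromosome 4 at 42206998 to 42235313 (GRCm38, plus strand), and its 5054-base transcript has stretches of at least 200 bases and 95% identity in common with 17 other genes, mostly predicted ones. Its count is therefore uncertain, since reads of the shared stretches may not be told from its own. Of the 17, 5 are in the count tables. Gm3892 had 5 UMIs in the library labelled MR1 knockout and 29 in the 5XFAD library, a ratio of 0.173 (0.0522 to 0.451), and Gm3893 had none in either. Gm12394 and Ift46 had ratios of 1.09 and 1.06, and Ube2l6 had 60 UMIs against 40 (interval of the ratio 0.990 to 2.30). The pseudogene Gm13301, which overlaps it on the same strand, was not used here. The nearest tested genes before it were Gm20878, with 34 UMIs against 124 (ratio 0.275, 0.182 to 0.404), and Ccl27a at 0.857. The nearest after it were 4930578G10Rik at 1.14 and Gm12394. So Gm20878 and Gm3892 were low in the library labelled MR1 knockout as well, while the other neighbours and the copies with UMIs lay between 0.857 and 1.502.

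Sav1 was lower in every class of the library labelled MR1 knockout. CA2/CA3 pyramidal neurons had 5.78 UMIs per 100 nuclei (4.69 to 7.05) in that library and 25.8 (22.9 to 28.9) in the 5XFAD library. Subicular or cortical excitatory neurons had 6.10 and 24.1, inhibitory neurons 5.61 and 21.4, CA1 pyramidal neurons 3.26 and 17.3, and dentate granule neurons 2.69 and 10.9. No neuronal interval of one library overlapped that of the other. Oligodendrocytes had 2.26 UMIs per 100 nuclei (1.40 to 3.46) in the library labelled MR1 knockout and 13.6 (11.1 to 16.4) in the 5XFAD library, and their CPM ratio of 0.236 (0.140 to 0.379) was the lowest of the 9. Oligodendrocyte precursors had 2.59 and 10.4 and astrocytes 1.57 and 7.11. Microglia had 2.06 (1.18 to 3.34) and 4.12 (1.97 to 7.57), and here the ratio of 0.664 had an interval of 0.283 to 1.64, so these counts are too few to show a difference. The order of the classes was alike in the 2 libraries: CA2/CA3, subicular or cortical and inhibitory neurons came first in both, with overlapping intervals, and microglia and astrocytes last. Clusters without a name went the same way, with 284 UMIs against 759 (ratio 0.331, 0.288 to 0.380).

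Other genes of the Hippo pathway lay nearer to 1. Of 29 listed genes, 24 reached 100 UMIs, and of these 0 were higher and 1 lower past 1.5-fold; the median log2 ratio was 0.08, beside 7.12% and 2.59% and a median of 0.12 over all 16844 genes at that depth. The gene past it was the YAP target Ccn2, with 253 UMIs against 405 (ratio 0.625, 0.532 to 0.734). By class, Ccn2 was past the limit in 0 of 3 measured classes. It was among the top genes of a subicular or cortical cluster with 187 nuclei of the library labelled MR1 knockout and 426 of the 5XFAD library. The part of this cell makeup in its ratio was not tested. Frmd6, an upstream activator, was at 0.851, and at the top were the transcription factor Tead1 at 1.27 and Rassf2 at 1.24. Stk3 and Stk4, the kinases that Sav1 binds, were at 1.21 and 1.11. The neighbours of Sav1 on chromosome 12 were at 1.05 (Map4k5), 1.19 (Atl1), 0.867 (Nin) and 1.05 (Pygl). Atl1 overlaps the end of Sav1 on the opposite strand and shares 1336 bases of transcript with it. The strand setting of the counting is not given in the sources used here, so whether reads of that overlap were kept apart could not be checked.

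**Figure D2:**
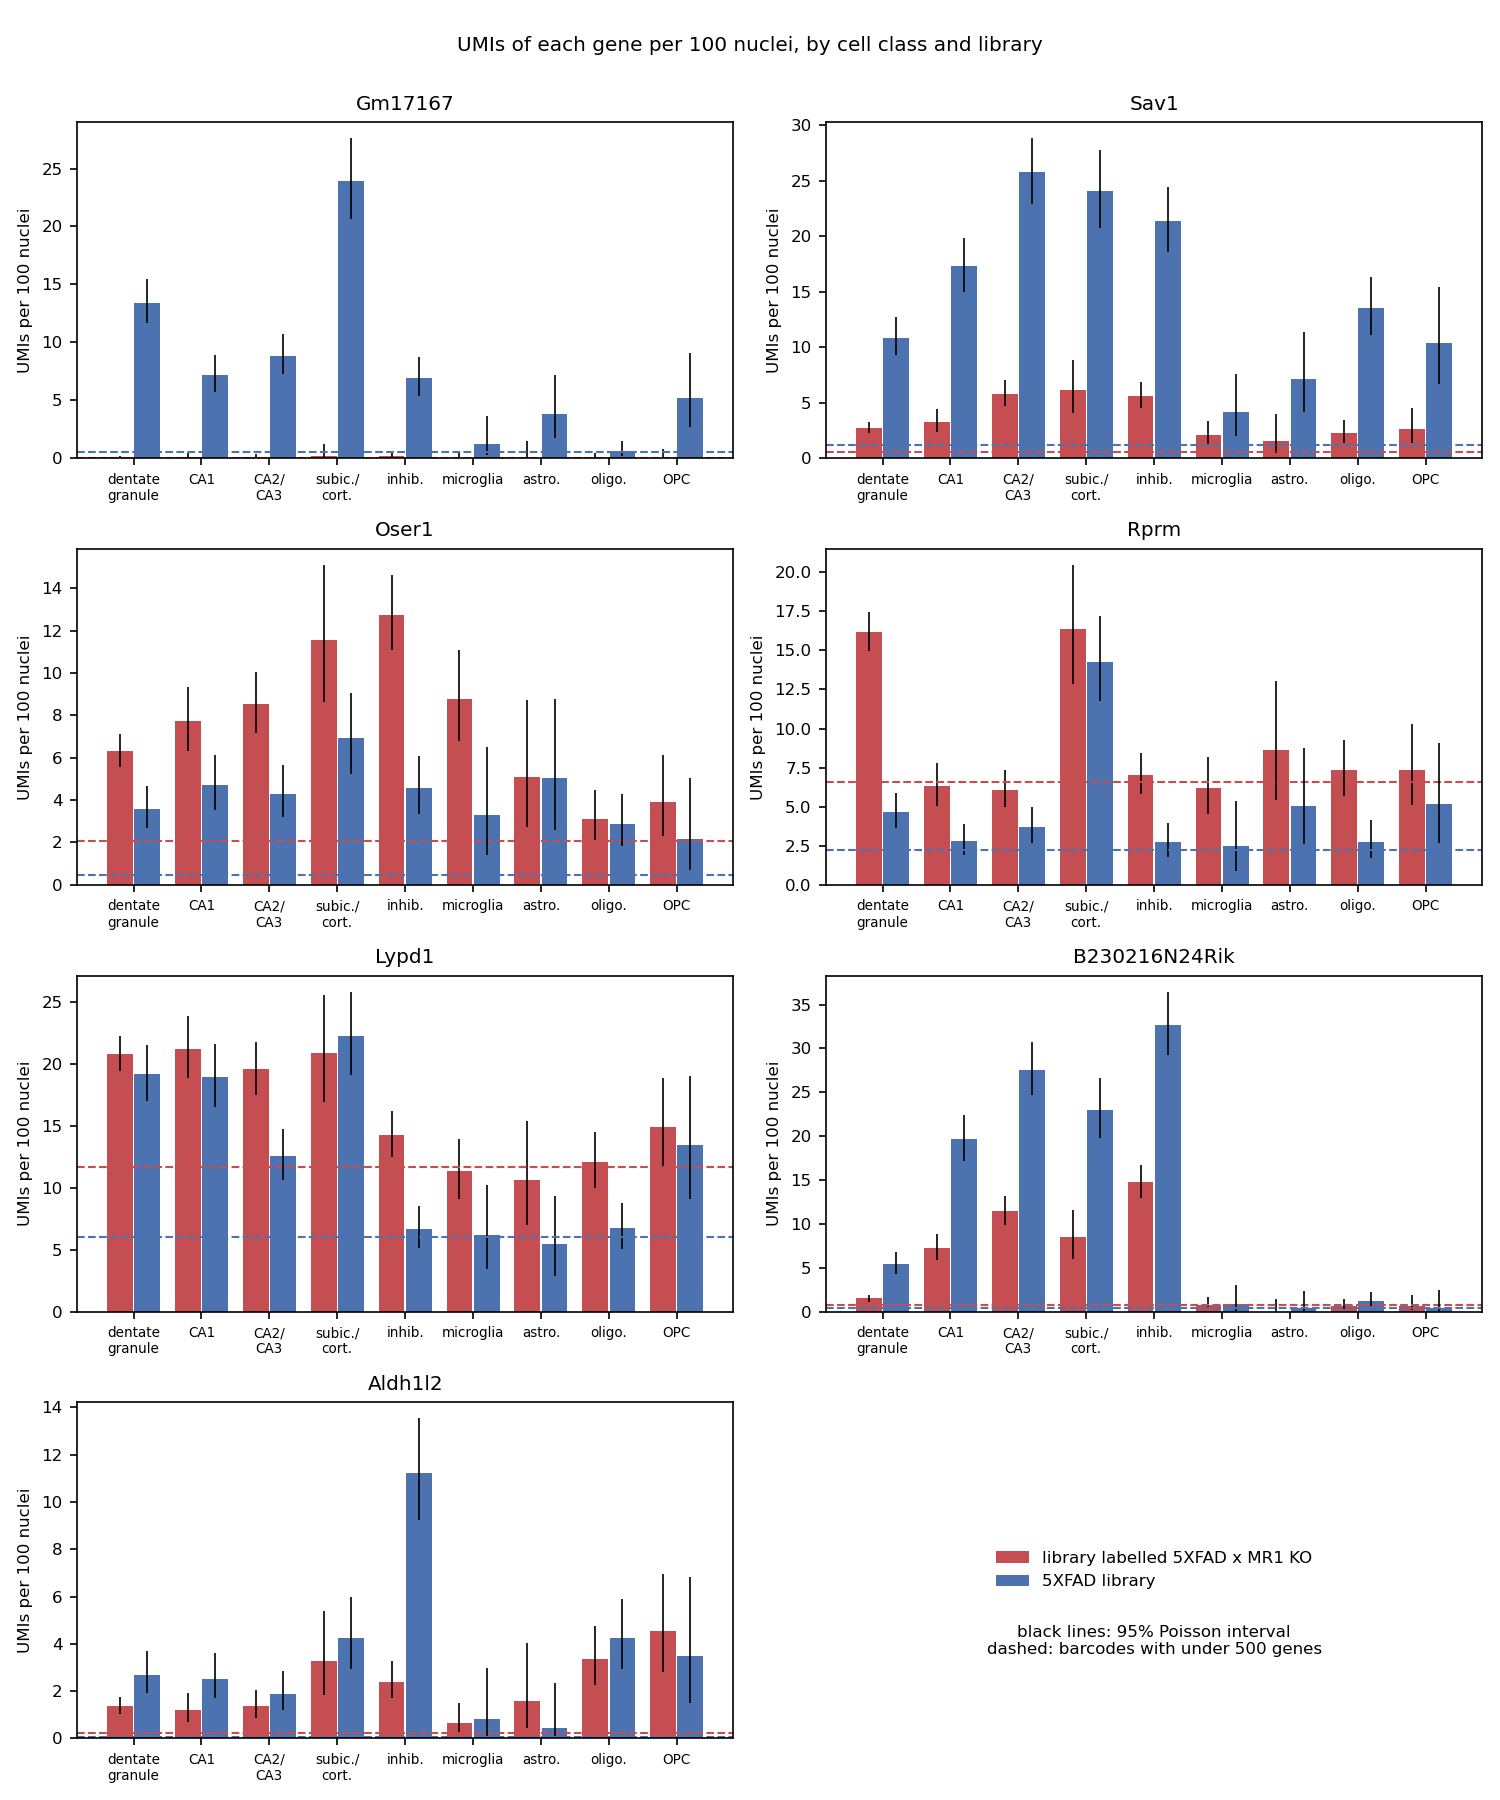
UMIs per 100 nuclei of each gene by cell class, in the library labelled MR1 knockout (left bar) and the 5XFAD library (right bar), with 95% Poisson intervals; dashed lines give the same measure in barcodes with under 500 genes of the library of that colour. Rprm and Lypd1 sit near the dashed lines in glia of the library labelled MR1 knockout. In the 5XFAD library they do so in microglia and oligodendrocytes. Sav1 lies above the dashed lines in nearly every class.

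Oser1 was higher in the library labelled MR1 knockout in 8 classes. Inhibitory neurons had 12.8 UMIs per 100 nuclei (11.1 to 14.6) in that library and 4.56 (3.33 to 6.10) in the 5XFAD library, and their CPM ratio of 3.53 (2.55 to 4.99) was level with that of microglia. Microglia had 8.75 (6.80 to 11.1) and 3.29 (1.42 to 6.49), from 68 and 8 UMIs. CA2/CA3 pyramidal neurons had 8.52 and 4.30, CA1 pyramidal neurons 7.72 and 4.69, and dentate granule neurons 6.32 and 3.58. In each of these 5 classes the intervals of the libraries did not overlap. Subicular or cortical excitatory neurons had 11.5 (8.65 to 15.1) and 6.95 (5.22 to 9.07), which overlap by a little. Oligodendrocytes had 3.12 and 2.86 UMIs per 100 nuclei, oligodendrocyte precursors 3.89 and 2.16, and astrocytes 5.10 and 5.02. The CPM ratio was 1.54 (0.863 to 2.80) in oligodendrocytes, 2.67 (0.954 to 9.18) in their precursors and 1.23 (0.519 to 2.96) in astrocytes, and the counts in these 3 classes are too few to show a difference. The transcript of Oser1 has a near-identical pseudogene, Gm12226, with 876 bases at 99.8% identity, which was not used here.

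Of 24 FoxO and oxidative stress genes, all of which reached 100 UMIs, 4 were higher past 1.5-fold and 0 lower (7.12% and 2.59% over all genes at that depth), and their median log2 ratio was 0.19. The highest were the antioxidant regulator Nfe2l2 at 1.64 (1.43 to 1.89) and haem oxygenase Hmox1 at 1.62 (1.11 to 2.41), and Foxo4 and Srxn1 also passed it. The lowest were Foxo1 at 0.781 and Oxr1 at 0.889. Oser1 lies on chromosome 2 (163405822 to 163424697, minus strand), and Tox2, Mybl2, 2900093K20Rik and Gdap1l1 around it had ratios of 0.968, 1.01, 1.02 and 1.27. 2900093K20Rik overlaps it in antisense.

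Rprm was higher in all 9 classes by CPM, and outside 2 classes its level per nucleus varied little from class to class. In the library labelled MR1 knockout, subicular or cortical excitatory neurons had 16.3 UMIs per 100 nuclei (12.9 to 20.5) and dentate granule neurons 16.2 (14.96 to 17.4). The other 7 classes lay between 6.08 in CA2/CA3 pyramidal neurons and 8.63 in astrocytes, with neighbouring intervals that overlapped. In the 5XFAD library, subicular or cortical excitatory neurons had 14.3 (11.8 to 17.2) and stood apart from all others. There dentate granule neurons had 4.66 (3.62 to 5.89), and the other 7 classes lay between 2.47 in microglia and 5.19 in oligodendrocyte precursors. Dentate granule neurons thus differed most between the libraries, with 672 UMIs against 69 and a CPM ratio of 6.02 (4.69 to 7.83). That class was made of 2 clusters filled unequally: the first held 3364 nuclei of the library labelled MR1 knockout and 361 of the 5XFAD library, the other 795 and 1121. Within the first cluster the ratio was 3.38 (2.17 to 5.58), from 88.1 and 26.0 CPM, and within the other 3.09 (2.13 to 4.50), from 30.2 and 9.78 CPM. Both are near the ratio in CA1 pyramidal neurons, 3.41 (2.25 to 5.29). Subicular or cortical excitatory neurons had the smallest ratio, 1.64 (1.21 to 2.22).

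Lypd1 by CPM was higher in 8 classes, while in 3 of the 5 neuronal classes its level per nucleus overlapped between the libraries. Dentate granule neurons had 20.8 UMIs per 100 nuclei (19.4 to 22.2) in the library labelled MR1 knockout and 19.2 (17.0 to 21.5) in the 5XFAD library. CA1 pyramidal neurons had 21.2 and 18.9, and subicular or cortical excitatory neurons 20.9 (16.9 to 25.5) and 22.3 (19.1 to 25.8), with overlapping intervals in all 3. The last class had a CPM ratio of 1.35 (1.04 to 1.74) and a ratio per nucleus of 0.939. CA2/CA3 pyramidal neurons had 19.5 and 12.5 UMIs per 100 nuclei, and inhibitory neurons 14.2 (12.4 to 16.2) and 6.69 (5.17 to 8.51). In these 2 classes the intervals did not overlap. The CA2/CA3 difference differed in size between the mice: the females had 98 UMIs against 114, a CPM ratio of 1.47 (1.11 to 1.95), within the limit, and 1.11 per nucleus (0.838 to 1.47), while the males had 146 UMIs in 585 nuclei against 7 in 210, a CPM ratio of 11.7 (5.52 to 29.6). Dentate granule neurons of the females were also within the limit, at 1.35 (1.14 to 1.60), and those of the males at 2.23 (1.55 to 3.31). Per nucleus these ratios were 0.768 (0.648 to 0.9115) in the females, which is the other direction, and 1.33 (0.927 to 1.98) in the males. In glia the library labelled MR1 knockout had between 10.6 in astrocytes and 14.9 in oligodendrocyte precursors, and the 5XFAD library between 5.44 in astrocytes and 13.4 in oligodendrocyte precursors. The highest CPM ratio was that of inhibitory neurons, 2.69 (2.04 to 3.59). Unnamed clusters of the library labelled MR1 knockout had 50.4 UMIs of Lypd1 per 100 nuclei, above any named class, against 19.2 in those of the 5XFAD library. These pooled values do not compare like cells. Unnamed clusters with 1064, 715 and 639 nuclei of the library labelled MR1 knockout held 11, 34 and 1 of the 5XFAD library. Lypd1 was among the top genes of the second. Of 7 unnamed clusters compared singly, 4 were higher past the limit, and the median ratio was 1.74.

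The glial levels of these genes were set beside barcodes that held little. The 1801 barcodes of the library labelled MR1 knockout and the 1732 of the 5XFAD library with under 500 genes, which had been left out, had median depths of 552 and 586 UMIs. Rprm had 6.55 UMIs per 100 such barcodes (5.42 to 7.85) in the library labelled MR1 knockout and 2.25 (1.60 to 3.08) in the 5XFAD library. Pooled glia had 7.10 and 3.43 UMIs per 100 nuclei, 1.08 times (0.852 to 1.38) and 1.52 times (0.986 to 2.37) the level of those barcodes. Lypd1 had 11.7 UMIs per 100 such barcodes (10.1 to 13.3) in the library labelled MR1 knockout and 6.005 (4.91 to 7.28) in the 5XFAD library. Pooled glia had 12.2 and 7.45, which is 1.05 times (0.875 to 1.26) and 1.24 times (0.942 to 1.64) as much. So in pooled glia of either library no level of these genes above that of near-empty barcodes was detectable; the one glial class whose interval lay above was oligodendrocyte precursors of the 5XFAD library, for Lypd1. For Rprm, 2 classes had intervals above that of near-empty barcodes in both libraries, dentate granule neurons and subicular or cortical excitatory neurons. In CA1, CA2/CA3 and inhibitory neurons the intervals overlapped it, but overlap of intervals does not compare 2 rates. In the 5XFAD library, Rprm in CA2/CA3 neurons was at 1.64 times the near-empty level. Astrocytes were at 2.23 times and oligodendrocyte precursors at 2.31 times. Whether these classes stood above it was not tested.

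For Rprm, Lypd1 and Oser1 the near-empty barcodes differed between the libraries as the nuclei did. Gm17167 had 0 UMIs there against 9. The other genes had few UMIs there and intervals that include 1. Their ratios were 0.503 (0.210 to 1.13) for Sav1, 1.63 (0.628 to 4.55) for B230216N24Rik and 4.02 (0.398 to 198) for Aldh1l2. The last 2 lay on the other side of 1 from the nuclei. Rprm had 118 CPM in near-empty barcodes of the library labelled MR1 knockout and 38.6 CPM in those of the 5XFAD library, a ratio of 3.04 (2.10 to 4.49). Lypd1 had 209 and 103 CPM there, a ratio of 2.03 (1.60 to 2.59), and Oser1 36.9 and 7.93 CPM, a ratio of 4.65 (2.13 to 11.6). Relative to kept nuclei of the same library, the CPM of Rprm in near-empty barcodes was 3.17 times as high (2.61 to 3.82) in the library labelled MR1 knockout and 3.91 times (2.75 to 5.41) in the 5XFAD library, above 88.3% and 89.7% of genes. For Lypd1 it was 2.49 and 3.01 times as high. For Oser1 it was 1.29 (0.908 to 1.79) and 0.841 (0.361 to 1.67), for Sav1 0.773 and 0.522, for B230216N24Rik 0.480 and 0.194, and for Gm17167 in the 5XFAD library 0.442. Rprm and Lypd1 were thus enriched in near-empty barcodes, and none of the other genes had an interval above 1. There were also 56.2 Rprm UMIs per 100 Lypd1 UMIs (44.5 to 70.7) in near-empty barcodes of the library labelled MR1 knockout, beside 58.1 (47.9 to 70.4) in its glia. In the 5XFAD library these values were 37.5 (25.3 to 54.7) and 46.0 (32.5 to 64.5), and in each library the intervals for glia and for near-empty barcodes overlapped. Among kept nuclei, CPM in those under the median depth of their cluster and library was divided by CPM in the deeper ones. For Oser1 this gave 1.76 (1.59 to 1.94) in the library labelled MR1 knockout and 1.28 (1.07 to 1.54) in the 5XFAD library. It gave 1.86 and 2.16 for Rprm, 1.20 and 1.31 for Lypd1 and 1.37 and 1.60 for B230216N24Rik. Sav1 was at 1.005 and 1.31, Aldh1l2 at 1.37 and 1.09 and Gm17167 at 0.743 and 0.699.

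**Figure D3:**
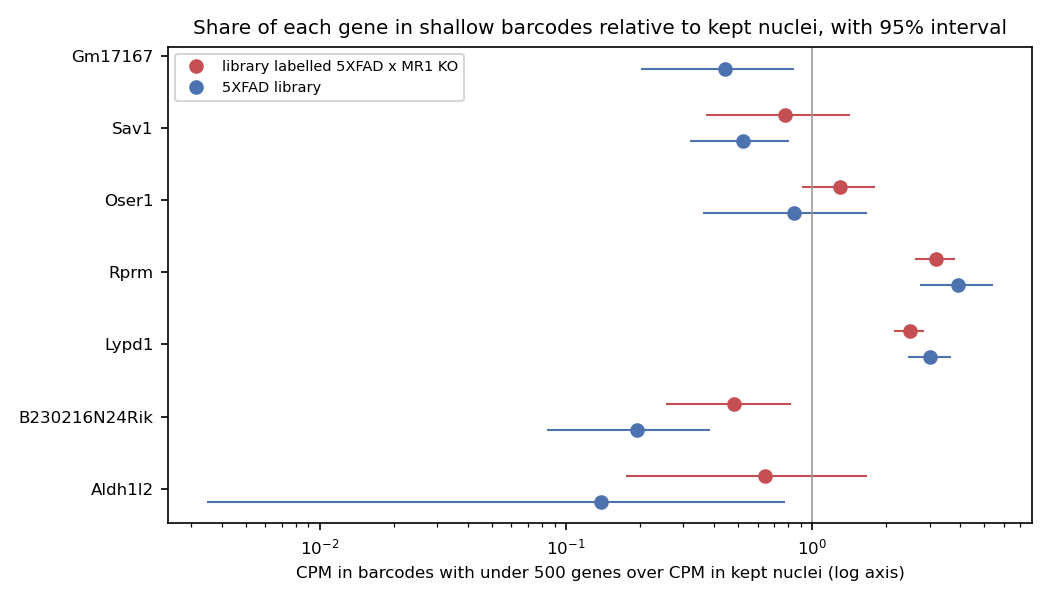
CPM of each gene in barcodes with under 500 genes divided by its CPM in kept nuclei of the same library (log axis), with 95% intervals; the upper point of each pair is the library labelled MR1 knockout and the lower the 5XFAD library. Rprm and Lypd1 lie right of 1 in both libraries, and Gm17167 has no point in the library labelled MR1 knockout, where it had 0 UMIs in 1801 barcodes.

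In pooled glia, Sav1, Oser1 and Aldh1l2 stood above near-empty barcodes in both libraries, and Gm17167 in the 5XFAD library. Sav1 had 0.555 UMIs per 100 such barcodes in the library labelled MR1 knockout and 1.15 in the 5XFAD library, and pooled glia 3.94 times (1.98 to 8.69) and 9.13 times (5.72 to 15.4) as many. Oser1 in pooled glia was at 2.57 times (1.77 to 3.81) and 6.85 times (3.21 to 16.8) the near-empty level. Its interval lay above that of near-empty barcodes in 1 glial class of the library labelled MR1 knockout, microglia. In the 5XFAD library it did so in 3 glial classes. By CPM, Oser1 in pooled glia was at 43.0 and 18.7, beside 36.9 and 7.93 in near-empty barcodes. Gm17167 in the 5XFAD library was at 3.68 times (1.70 to 8.83), with the intervals of astrocytes and oligodendrocyte precursors above that of near-empty barcodes. Aldh1l2 had 4 UMIs in the near-empty barcodes of the library labelled MR1 knockout and 1 in those of the 5XFAD library, beside 61 and 45 in pooled glia. B230216N24Rik was at 0.858 times (0.381 to 1.96) and 1.998 times (0.782 to 5.50), intervals too wide to set its glial level apart from near-empty barcodes or to exclude a higher one. Nuclei are deeper than near-empty barcodes, with 1052 to 1727 UMIs per glial nucleus in the library labelled MR1 knockout and 1488 to 2139.7 in the 5XFAD library, and the part of this in the multiples was not tested.

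A second yardstick was a panel of 8 abundant neuronal transcripts (Snap25, Syt1, Nrgn, Camk2a, Stmn2, Vsnl1, Chn1 and Olfm1), which glia should lack. Panel UMIs per glial nucleus were between 21.5% and 25.05% of the neuronal level in the library labelled MR1 knockout, and between 15.2% and 18.1% in the 5XFAD library. The levels of Rprm in glia were between 54.7% and 76.3% of its neuronal level in the library labelled MR1 knockout and between 48.7% and 102% in the 5XFAD library. Lypd1 lay between 54.4% and 76.5%, and between 34.1% and 84.2%. Per panel UMI, the glial level of Rprm was 2.26 to 3.05 times the neuronal one in the library labelled MR1 knockout and 2.89 to 5.66 times in the 5XFAD library, and that of Lypd1 2.17 to 3.10 and 1.91 to 4.65 times. Relative to neurons, both thus lay above the panel in all 4 glial classes. The panel itself had 444 UMIs per 100 near-empty barcodes in the library labelled MR1 knockout and 449 in the 5XFAD library. Its glial classes had 4.41 to 5.13 and 4.77 to 5.69 panel UMIs per nucleus. In glia the panel was thus also close to the near-empty level, though it is abundant in neurons. The part of free RNA in the glial UMIs of Rprm and Lypd1 was not tested. B230216N24Rik stayed at or below 11.3% and 6.12%, under the panel. Aldh1l2 was at 208% in oligodendrocytes and 283% in their precursors of the library labelled MR1 knockout, and at 100.1% and 82.0% in the 5XFAD library. The panel itself had 1 of 8 genes past 1.5-fold between the libraries, Olfm1 at 1.67, followed by Nrgn at 1.41, with Syt1 lowest at 0.892 and Vsnl1 next at 0.933.

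**Figure D4:**
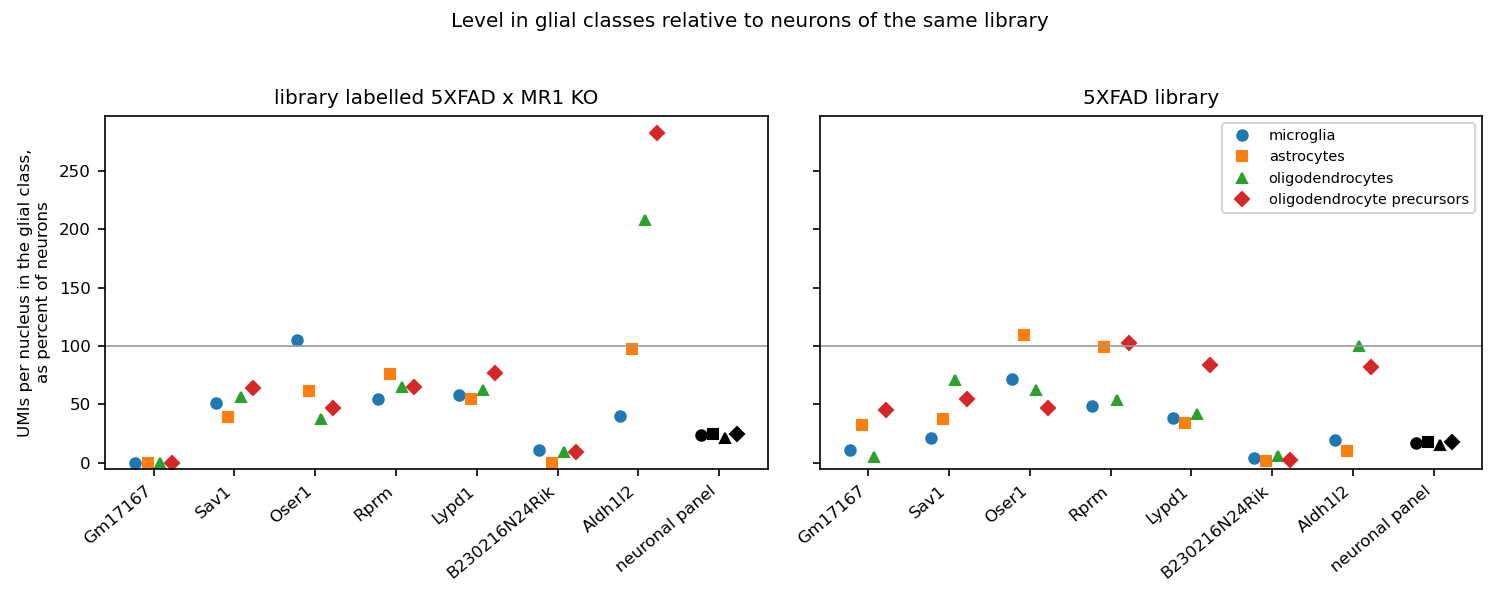
UMIs per nucleus of each gene in the 4 glial classes as percent of its level in neurons of the same library, with the 8-gene neuronal panel in black. B230216N24Rik lies below the panel in both libraries, and Rprm, Lypd1 and Oser1 lie above it.

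B230216N24Rik was a neuronal transcript in both libraries and was lower in all 5 neuronal classes of the library labelled MR1 knockout. Inhibitory neurons had 14.8 UMIs per 100 nuclei (12.96 to 16.7) in that library and 32.7 (29.3 to 36.5) in the 5XFAD library, a CPM ratio of 0.570 (0.480 to 0.675). CA2/CA3 pyramidal neurons had 11.4 and 27.6, subicular or cortical excitatory neurons 8.50 and 23.0, and CA1 pyramidal neurons 7.27 and 19.7. Dentate granule neurons had the least in both, 1.49 (1.14 to 1.91) and 5.47 (4.34 to 6.79). The order of these 5 classes was the same in both libraries, though neighbours in it overlapped apart from dentate granule neurons, and the CPM ratios were close together, between 0.473 in dentate granule neurons and 0.587 in CA2/CA3 pyramidal neurons. The 4 glial classes held 15 UMIs in all in the library labelled MR1 knockout and 14 in the 5XFAD library. In unnamed clusters the ratio was 0.820 (0.747 to 0.900), which is not past the limit; of 6 unnamed clusters with at least 20 UMIs, 3 were above 1. Of these 6, 1 was higher past the limit, with 177 UMIs in 880 nuclei against 46 in 304 (ratio 1.76, 1.26 to 2.49), and 1 was lower past it, at 0.445 (0.172 to 1.03). The gene lies within Pam on the same strand of chromosome 1 (98031116 to 98057680, minus strand), so intronic reads of the 2 cannot be told apart; Pam was at 0.934. Of its other neighbours, Gin1 was at 1.11, Cntnap5b at 0.811 and Gm7967 at 2.42 (1.89 to 3.13).

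Aldh1l2 differed between the libraries in inhibitory neurons, with 39 UMIs in 1639 nuclei of the library labelled MR1 knockout and 111 in 987 nuclei of the 5XFAD library. That is 2.38 UMIs per 100 nuclei (1.69 to 3.25) against 11.2 (9.25 to 13.5), a CPM ratio of 0.267 (0.181 to 0.388), where 3.57% of genes were lower past 1.5-fold. Within inhibitory clusters the ratio was 0.169 (0.0691 to 0.361), 0.215 (0.0709 to 0.550) and 0.424 (0.196 to 0.881) in the 3 with at least 20 UMIs. It was lower in both mice, at 6.40 CPM in the female labelled MR1 knockout and 25.04 CPM in the 5XFAD female, and at 3.38 and 13.4 CPM in the males. One cluster of subicular or cortical excitatory neurons, of 116 and 152 nuclei, had 5 UMIs against 25 (ratio 0.349, 0.104 to 0.928). Of 13 clusters with at least 20 UMIs, 6 were lower past the limit and 2 higher, the oligodendrocyte precursors and an unnamed cluster with 5 UMIs in 61 nuclei against 18 in 563 (ratio 3.72, 1.08 to 10.4). Outside inhibitory neurons the ratios were 0.865 (0.567 to 1.33) in dentate granule neurons, 0.708 (0.359 to 1.35) in CA1, 1.03 in CA2/CA3, 1.11 in subicular or cortical excitatory neurons and 1.12 in oligodendrocytes. The value of subicular or cortical excitatory neurons pooled mice that went opposite ways, with 1 UMI against 31 in the females (ratio 0.0855, 0.00210 to 0.513) and 8 against 0 in the males. Oligodendrocyte precursors had 21 UMIs against 8, a ratio of 1.94 with an interval of 0.827 to 5.07. In the 5XFAD library inhibitory neurons were the highest class and stood apart from the next, whereas in the library labelled MR1 knockout they came after oligodendrocyte precursors, oligodendrocytes and subicular or cortical excitatory neurons, with overlapping intervals.

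Of 20 measured genes of folate one-carbon metabolism, 0 were higher and 0 lower past 1.5-fold (7.12% and 2.59% over all genes at that depth), and their median log2 ratio was 0.17. Gcsh was at 1.26. The lowest were Mthfd2, the mitochondrial enzyme that makes 10-formyltetrahydrofolate, at 0.765 (0.692 to 0.846) and Atic at 0.861. Of 18 measured targets and kinases of the integrated stress response, which can induce Aldh1l2, 4 were higher and 0 lower, beside the same 7.12% and 2.59%, led by Ddit4 at 1.61 (1.38 to 1.88) and Cebpb at 1.60 (1.46 to 1.75), and the lowest were Chac1 at 0.691 and Psph at 0.888. Atf4 itself was at 1.07. The neighbours Slc41a2, D10Wsu102e, Washc4 and Appl2 were between 1.10 and 1.16. D10Wsu102e overlaps Aldh1l2 on the opposite strand and shares 1056 bases with it.

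The genes around and related to Rprm and Lypd1 were mixed, beside 7.12% higher and 2.59% lower past the limit over all genes at that depth. Of 17 measured p53 targets and cell cycle arrest genes, 2 were higher, Gadd45a at 2.21 (1.71 to 2.87) and Bbc3 at 1.75 (1.47 to 2.09), and 2 lower, Cdkn1a at 0.583 (0.408 to 0.827) and Ccnb1 at 0.660 (0.465 to 0.930). The paralogue Rprml was at 1.02. Of 13 measured Ly6 proteins and nicotinic or muscarinic receptors, 1 was higher, Cd59a at 2.20 (1.82 to 2.67), followed by Ly6e at 1.43. The 2 lower ones were the nicotinic subunit Chrna5 at 0.615 (0.503 to 0.750) and the muscarinic receptor Chrm2 at 0.651 (0.613 to 0.692). By class, Chrna5 was lower past the limit in 0 of 3 measured classes and Chrm2 in 2 of 5. Next to Rprm on chromosome 2, Arl6ip6 was at 1.16, Galnt13 at 0.655 (0.641 to 0.670) and Gm14033 at 1.71 (1.35 to 2.17). Next to Lypd1 on chromosome 1, Slc35f5, Nckap5 and Mgat5 were between 1.02 and 1.19. Gpr39, which overlaps Lypd1 on the opposite strand and shares 1203 bases with it, had 335 UMIs against 188, a ratio of 1.78 (1.49 to 2.14). Whether the counting kept reads of the 2 strands apart could not be checked.

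Nuclei of the 4 mice were told apart by Xist and Y-linked RNA. Of the kept nuclei, 5154 of the library labelled MR1 knockout and 3308 of the 5XFAD library were assigned to neither mouse. They are left out of the values by mouse. Over all assigned nuclei the females and the males differed in the same direction as the libraries for all 7 genes. Gm17167 had 0.276 CPM in the female and 0.592 CPM in the male labelled MR1 knockout, against 21.5 and 20.5 CPM in the 5XFAD female and male. Sav1 had 13.5 and 10.8 CPM, against 37.1 and 36.9 CPM. Both knockout-labelled mice lay far below both 5XFAD mice for these genes. Oser1 had 29.1 CPM in the female and 23.4 CPM in the male labelled MR1 knockout, against 8.46 and 9.69 CPM in the 5XFAD female and male. Rprm had 43.4 and 19.9 CPM, against 9.53 and 8.49 CPM, and Lypd1 95.2 and 59.9 CPM, against 32.7 and 32.9 CPM. The groups of mice did not overlap for these 3 either. The male labelled MR1 knockout was at 0.459 times (0.398 to 0.527) the female of its library for Rprm and at 0.629 times (0.579 to 0.683) for Lypd1. The 5XFAD male was at 0.892 (0.729 to 1.09) and 1.01 (0.908 to 1.12) times the female. Unnamed clusters held 42.7% of the nuclei of the female and 14.3% of those of the male labelled MR1 knockout, and 19.6% and 40.6% in the 5XFAD female and male (their part in these ratios was not tested). Within some classes the order of the mice labelled MR1 knockout turned round for Lypd1. Dentate granule neurons had 68.2 CPM in the female and 123.8 CPM in the male, and CA2/CA3 pyramidal neurons 28.8 and 46.2 CPM. In CA1 pyramidal neurons the mice were level, at 58.7 and 57.9 CPM. Inhibitory neurons kept the order, with 143 UMIs in 874 nuclei of the female and 43 in 338 of the male. For Rprm the order held in dentate granule neurons, with 95.1 and 34.4 CPM. The mice were close in subicular or cortical excitatory neurons (40.5 and 43.2 CPM) and in inhibitory neurons (16.1 and 16.2 CPM). B230216N24Rik had 31.6 and 21.7 CPM, against 37.6 and 44.3 CPM, so that its ratio was 0.841 (0.770 to 0.918) between the females, within the limit, and 0.488 (0.423 to 0.562) between the males. Aldh1l2 had 5.92 and 4.31 CPM, against 8.75 and 4.82 CPM, and here the mice overlapped. Both mice of a library were processed together, so they are not independent replicates.

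**Figure D5:**
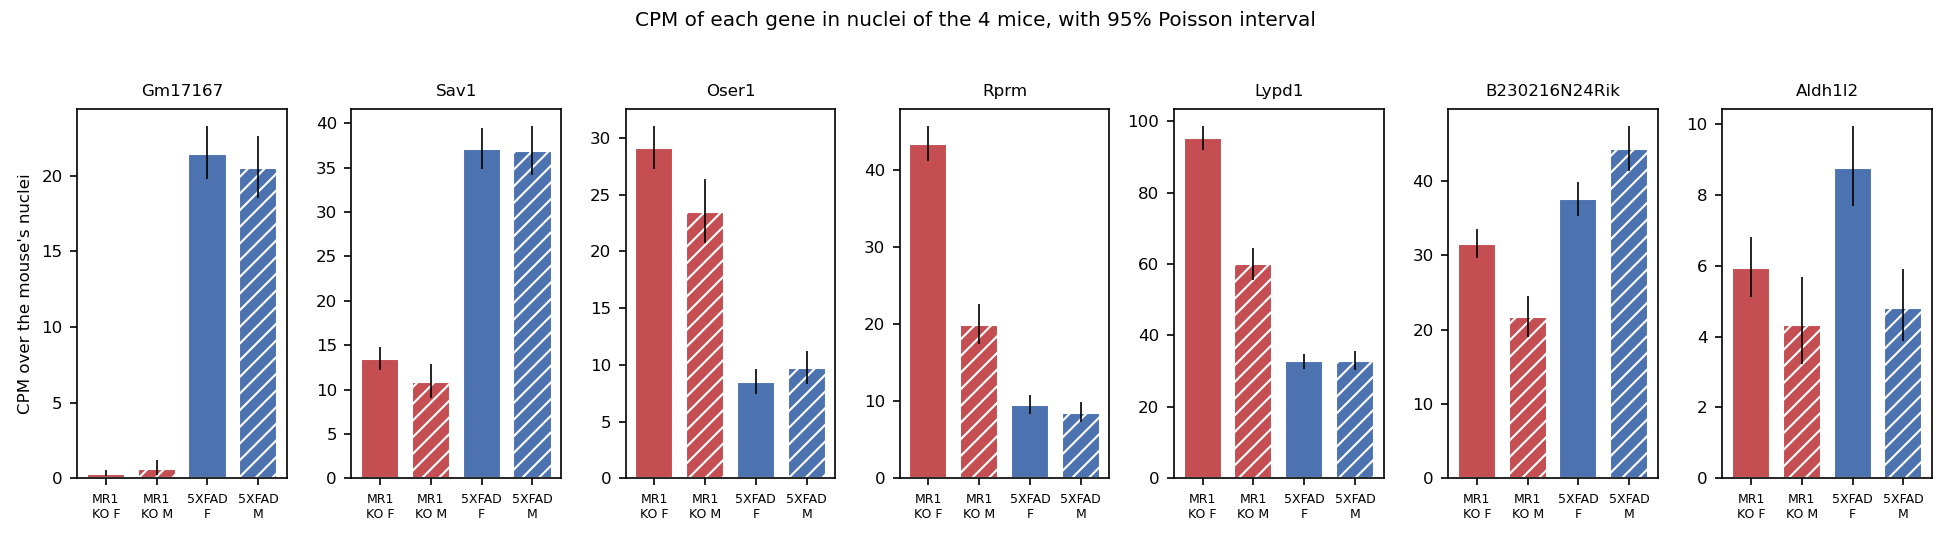
CPM of each gene over the kept nuclei assigned to the female (plain) and male (hatched) mouse of the library labelled MR1 knockout (left pair) and of the 5XFAD library (right pair), with 95% Poisson intervals. The values of the pairs do not overlap for the first 6 genes, and they do for Aldh1l2.

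The libraries also differed in markers of other cells inside the compared classes. The 10 striatal markers summed to between 169 and 766 CPM in the 9 classes of the library labelled MR1 knockout and to between 493 and 989 CPM in the 5XFAD library, with at most 2 markers at 0 in a class, and the ratio was lowest in oligodendrocytes (0.255) and highest in CA1 pyramidal neurons (0.896). The 10 dentate granule markers outside that class had ratios between 0.911 in oligodendrocyte precursors and 1.64 in CA1 pyramidal neurons, with 1 marker at 0 in astrocytes of the 5XFAD library. Striatal nuclei held 3.69% of the Gm17167 UMIs and 6.72% of the Sav1 UMIs of the 5XFAD library, and without them the ratios were 0.0176 and 0.333. The part of other cells' RNA in the class values was not tested.

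Over the 18 pairs of class and library, which share the depth and makeup of 2 libraries, the genes most like each by Pearson correlation of log2(CPM + 1) among 12660 genes were as follows. For Gm17167 they included Scn4b (r = 0.78) and Gm47283 (0.76, on chromosome Y), and for Sav1 Tac1 (0.78) and Cartpt (0.77). Scn4b and Tac1 are abundant in striatal neurons. For Oser1 they were Tmub2 (0.92), Emc9 and Tiprl (both 0.88), for Rprm Grp (0.89), Atn1 (0.89) and A2ml1 (0.88), and for Lypd1 Enc1 (0.90), Myh7 (0.88) and Ankrd46 (0.87). For B230216N24Rik they were Fgf10 and Oxr1 (both 0.94) and Ahr (0.92), and for Aldh1l2 Kazn (0.84), Pstpip2 and Clip3 (both 0.83). Of these, Cartpt was lower past 1.5-fold in 9 of 9 classes and A2ml1 was higher in 8 of 8, and Oxr1, Ahr and Clip3 were past it in none.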

How the data were processed

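Single-nucleus RNA was measured in 2 libraries, 5XFAD x MR1 KO and 5XFAD. The authors deposited whole UMI counts per gene and barcode, made with Cell Ranger 7.0.0 per the file headers; the submitters' processing notes also name mm10 and Seurat. Gene annotation, strandedness of counting and use of intronic reads were not given in the sources used here. In all, the library labelled MR1 knockout held 26212 barcodes and 85678909 UMIs, and the 5XFAD library 25238 and 106861726.

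Nuclei with at least 500 genes and under 5% mitochondrial UMIs were kept, which left 22263 and 15408; the mitochondrial limit alone removed 8.92% and 35.8%. Doublets were marked with Scrublet at 0.8% per 1000 barcodes (20.4% and 19.5%), a threshold set after its automatic one marked 5.50% and 22.0%. Both libraries were clustered together without correction with scanpy 1.11.5 (2500 variable genes, 40 components, 20 neighbours, Leiden resolution 1.5). Clusters with at least 3 markers of 1 class among their top 50 genes were named; of 48 clusters, 4 were left out as mixed and 17 stayed unnamed, so classes may differ from the study's. UMIs were summed per library and class. Ratios are of CPM, with exact conditional binomial intervals, and levels have exact Poisson intervals; these cover counting error only, and nuclei are no replicates. A gene was past the limit at 1.5-fold with 20 UMIs (100 for the lists) over both libraries. Female nuclei had at least 2 Xist UMIs, male nuclei at least 1 Y-linked UMI. The calculation was tested on simulated data. Similar transcripts were sought in GENCODE M21, which also gave coordinates and matched 32158 IDs, with blastn 2.17.0 (at least 95% identity over 200 bases), and promoters came from RefSeq.

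The genes and lists were chosen with earlier results of these data known. The text names the 7 genes, Mr1, 2 neighbours on each side (at least 50 UMIs), the 3 genes most like each (at least 500 UMIs), and the 2 highest and lowest of each list; Stk3, Stk4, Foxo4, Srxn1, Atf4, Rprml and the similar transcripts were added after their values were seen. A few genes that this rule names are not reported here. The comparison with barcodes under 500 genes was also chosen after seeing the data.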

Additional observations from a re-analysis of the deposited data

Results flagged for a closer look

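Barcodes above the mitochondrial limit of 5% enter no comparison above. With at least 500 genes, they were 2148 in the library labelled MR1 knockout and 8098 in the 5XFAD library. The share of all genes past 1.5-fold in them was not computed, so the values only describe the genes. Rprm, Oser1 and Lypd1 were higher there too. Rprm had 53.7 CPM in the library labelled MR1 knockout and 13.6 CPM in the 5XFAD library, a ratio of 3.95 (3.34 to 4.67). Oser1 had 27.8 and 9.68 CPM, a ratio of 2.87 (2.30 to 3.58). Lypd1 had 88.5 and 44.6 CPM, a ratio of 1.98 (1.77 to 2.23). Gm17167 had 1 UMI against 380 in these barcodes, and Sav1 was at 0.520 (0.402 to 0.665).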

How the results depend on the processing

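No ratio past 1.5-fold changed direction under the alternatives run; Aldh1l2, within that limit, lay above 1 after thinning. Per nucleus, the ratio over all nuclei was 0.237 for Sav1, 0.463 for B230216N24Rik, 0.603 for Aldh1l2, 1.71 for Lypd1, 2.11 for Oser1 and 2.62 for Rprm, with Lypd1 past the limit in 5 classes instead of 8 and Aldh1l2 lower in 3 instead of 1. In the female mice alone it was 0.677 for Aldh1l2, 0.841 for B230216N24Rik, 2.91 for Lypd1, 3.44 for Oser1 and 4.55 for Rprm, with 2 classes lower for Aldh1l2 and 5 higher for Lypd1. In the male mice alone it was 0.0289 for Gm17167, 0.294 for Sav1, 0.488 for B230216N24Rik, 1.82 for Lypd1, 2.34 for Rprm and 2.42 for Oser1; of fewer classes with 20 UMIs, 4 were higher for Lypd1, 4 for Oser1 and 5 for Rprm. With mitochondrial UMIs under 1%, Lypd1 was at 2.71 and Sav1 at 0.373, and of the 5 classes still measured 2 were lower for Aldh1l2, 5 lower for Sav1, 4 higher for Lypd1, 4 for Oser1 and 5 for Rprm. Thinning to 1000 UMIs, which left out 1971 and 967 nuclei, gave 0.289 for Sav1, 0.612 for B230216N24Rik, 1.12 for Aldh1l2, 2.17 for Lypd1 and 3.36 for Oser1, and left Gm17167 with 2 measured classes, both lower. Scaling by the median of gene ratios gave 0.310 for Sav1, 0.605 for B230216N24Rik and 2.24 for Lypd1, and by a trimmed mean 0.309, 0.603 and 2.23; either put 2 classes of Aldh1l2 past the limit, as did at least 1000 genes per nucleus. All deposited barcodes gave 0.734 for B230216N24Rik and 2.25 for Lypd1, and named classes alone 0.514 and 1.91. At 2-fold, 1 class was lower for B230216N24Rik instead of 5, and 5 were higher for Lypd1. With no minimum of UMIs, Gm17167 was lower in 9 classes. For these changes the cause was not tested, other than the fewer UMIs of the smaller sets. Keeping doublets, leaving out striatal neurons (chosen after seeing the data), a minimum of 50 UMIs and a Leiden resolution of 1.0 moved none of the ratios over all nuclei or class counts they were run on. No paired analysis was possible because each group has 1 library.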
